A study of Mus musculus with 11 samples.

Results

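Cytochromes P450 of families 1 to 3 are the liver's main enzymes of drug, toxin and steroid oxidation, and their transcripts were followed here in the livers of mice on an alcohol-containing western diet with and without depletion of Kupffer cells. Members were taken by gene symbol: Cyp1a, Cyp1b, Cyp3a, or Cyp2 with a single letter, followed by digits only. Symbols with any further letter were not taken. Cyp2b9, Cyp2b10, Cyp2b13 and the alcohol-oxidising Cyp2e1 were left out, and at least 10 counts summed over 11 livers were required. Of 55414 genes in the deposited table, 55 carried such a symbol and 49 reached the minimum. Of these 49, 44 passed the filter on low counts and were tested. The other 5, Cyp2c65, Cyp2j7, Cyp2j8, Cyp2j12 and Cyp2j13, held 14 to 89 counts in all and were not tested. The 6 symbols below the minimum were Cyp2b19, Cyp2b23, Cyp2c66, Cyp2j11, Cyp2t4 and Cyp2w1, with 0 to 8 counts each.

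RNA was sequenced from whole liver of 11 male Clec4f-DTR mice. Feeding began when they were 8 weeks old and lasted 16 weeks. The DT livers (n = 4) came from mice on western diet with alcohol that received serial injections of DT (diphtheria toxin). The saline livers (n = 4) came from mice on the same diet with serial saline injections. The chow livers (n = 3) came from mice on normal chow, for which the labels name no injections. All 11 mice, controls included, carry the toxin receptor, which by its name is driven by the promoter of Clec4f, a lectin of Kupffer cells, the resident macrophages of the liver. The labels do not say when the last injection was given. The comparison of DT with saline asks what changed with depletion on the diet, that of saline with chow asks what changed with diet, alcohol and injections together, and that of DT with chow holds both. The 3 comparisons share livers, so they are not independent of each other.

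P450 enzymes are heme proteins of the endoplasmic reticulum that insert 1 oxygen atom into a lipophilic substrate, with electrons passed on by P450 oxidoreductase (Por). In liver they are made mainly by hepatocytes, many of them most strongly around the central vein. Their genes respond to ligand-bound receptors, the aryl hydrocarbon receptor for Cyp1a genes and Cyp1b1, and the receptors PXR (Nr1i2) and CAR (Nr1i3) for Cyp3a and many Cyp2c genes. Several mouse members differ between the sexes through growth hormone.

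Many members sit in tandem arrays of close copies, and near copies gave both unlike and like values in these livers. The start regions of 2 such pairs are shown, 1 of each kind. Each is the 300 bases from 250 before to 50 after the start, from RefSeq on GRCm38.p6, an earlier build than the authors' GRCm39. Capitals mark bases that differ between the members of a pair, or that have no partner in the alignment. Cyp2a4 lies at chr7:26306942-26307241 and Cyp2a5 at chr7:26835089-26835388, both on the plus strand of chromosome 7.
Cyp2a4: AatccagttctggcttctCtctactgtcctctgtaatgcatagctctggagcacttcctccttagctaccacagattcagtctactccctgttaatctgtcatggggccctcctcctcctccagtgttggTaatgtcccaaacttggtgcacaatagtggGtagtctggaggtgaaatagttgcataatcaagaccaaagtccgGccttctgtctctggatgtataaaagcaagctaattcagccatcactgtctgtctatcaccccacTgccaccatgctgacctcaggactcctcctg
Cyp2a5: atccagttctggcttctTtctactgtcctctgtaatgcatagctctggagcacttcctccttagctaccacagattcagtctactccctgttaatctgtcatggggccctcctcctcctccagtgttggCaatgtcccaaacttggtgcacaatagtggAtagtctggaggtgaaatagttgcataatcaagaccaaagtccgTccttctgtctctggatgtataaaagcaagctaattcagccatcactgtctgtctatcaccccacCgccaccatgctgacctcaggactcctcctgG
These 2 were identical at 294 of 299 aligned bases (98.3%), yet Cyp2a4 was among the members that rose most after DT and Cyp2a5 was not called in any comparison. Cyp2c37 lies at chr19:39992174-39992473 and Cyp2c50 at chr19:40089429-40089728, both on the plus strand of chromosome 19.
Cyp2c37: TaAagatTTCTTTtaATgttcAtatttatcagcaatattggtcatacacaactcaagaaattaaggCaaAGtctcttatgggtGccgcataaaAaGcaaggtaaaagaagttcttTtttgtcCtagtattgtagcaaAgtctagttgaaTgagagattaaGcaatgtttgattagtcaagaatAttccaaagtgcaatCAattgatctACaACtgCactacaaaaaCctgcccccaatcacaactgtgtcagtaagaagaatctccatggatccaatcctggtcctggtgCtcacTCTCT
Cyp2c50: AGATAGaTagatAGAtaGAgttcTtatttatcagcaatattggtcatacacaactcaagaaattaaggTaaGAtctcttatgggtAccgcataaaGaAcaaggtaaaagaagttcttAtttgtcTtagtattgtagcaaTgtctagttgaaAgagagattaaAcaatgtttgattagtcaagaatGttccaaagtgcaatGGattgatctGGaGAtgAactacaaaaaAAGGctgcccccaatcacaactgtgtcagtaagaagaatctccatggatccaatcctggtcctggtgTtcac
This pair matched at 263 of 292 aligned bases (90.1%), and the 2 genes were both lowest in DT 1, DT 3 and DT 4 among the 11 livers. The nuclear receptor half-site AGGTCA, searched on both strands, was present in both Cyp2a windows, on the minus strand at 31 bases after the start of Cyp2a4 and 30 after that of Cyp2a5. It occurred in 14 of 43 windows of members (32.6%) and in 16.3% of 32851 mouse windows of this length. The core GCGTG of the aryl hydrocarbon receptor element, also on both strands, occurred in 8 of 43 windows of members (18.6%) and in 32.4% of all windows. Direct repeats of this half-site with 4 or 1 bases between the copies (DR4 and DR1) were in 0 of the 43 windows and in 5 and 13 of all windows. RefSeq windows were matched by symbol for 40 of the 49 members, some with more than 1 start.

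Libraries held 43995217 to 58089531 counts. Clec4f itself was 9.06, 15.2, 7.51 and 6.18 CPM (counts scaled to library size) in DT livers, against 46.6, 49.1, 43.1 and 44.9 CPM in saline livers and 47.5, 50.3 and 37.1 CPM in chow livers, so every DT liver lay below every other liver. All 5 Kupffer cell markers fell in DT against saline and summed to 27.1, 39.8, 24.1 and 16.9 CPM in DT livers, 120.0 to 169 CPM in saline livers and 157 to 182 CPM in chow livers, with Cd163 at 0 in DT 1. One DT library, DT 2, stood apart from its group. Principal components were computed only on a subset of genes, picked for their large spread across the livers. The leading component held 75.9% of the variance of that subset, not of all genes. On it saline libraries scored -31.0 to -10.3 and chow libraries -34.6 to -28.5. The other DT libraries scored 62.5 to 71.8, while DT 2 scored -14.2. Its Clec4f and its sum of Kupffer cell markers lay below every saline and chow liver but were the highest of the DT livers. In DT 2, 26 of 44 tested P450 members lay within the saline range, against 10, 6 and 8 in DT 1, DT 3 and DT 4. Counts of calls over all members and over the larger subfamilies are therefore given with and without it. DT 2 was singled out after its values were seen, those of the members included. Because of that choice, larger differences and smaller p-values without it are no independent result. The 4 cholangiocyte markers summed to 71.4, 8.05, 47.2 and 82.5 CPM in DT livers, 3.49 to 6.66 CPM in saline livers and 9.13 to 17.7 CPM in chow livers. The 4 stellate cell and matrix markers summed to 323, 61.1, 255 and 325 CPM in DT livers, 35.5 to 90.0 CPM in saline livers and 15.1 to 25.0 CPM in chow livers. All 8 of these markers were called higher in DT than in saline livers, Krt7 was at 0 in chow 3, DT 2 had the lowest sums of its group, and their part in the results was not tested. The 3 hepatocyte markers found (Alb, Apoa1, Ttr) summed to 54839.5 to 72646 CPM in DT livers, 66969.8 to 84375 CPM in saline livers and 79288 to 98785 CPM in chow livers, and 0 of 3 was called between DT and saline by edgeR, DESeq2 or limma-voom (0 at an unadjusted p under 0.05). Without DT 2, Ttr was called lower (adjusted p = 0.00392). Apoa1 fell in DT against chow (log2 fold change -1.09, SE 0.22, adjusted p = 0.00733). The 4 leukocyte markers summed to 252, 101, 202 and 227 CPM in DT livers, 58.6 to 143 CPM in saline livers and 57.8 to 104 CPM in chow livers. In whole liver, fewer cells of a type and less RNA per cell cannot be told apart.

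Summed over all 49 members, P450 transcripts made up 12277, 16034, 9001 and 8904 CPM in DT livers, against 18137, 17468, 15007 and 16801 CPM in saline livers and 20987, 19823 and 20298 CPM in chow livers. All saline livers lay below all chow livers, and DT 1, DT 3 and DT 4 lay below all saline livers. Cyp3a11 made up a large part of this sum. Over all members but Cyp3a11 the sums were 7819.6, 12781, 5623 and 5012 CPM in DT livers, 12461, 12732, 10677 and 11992 CPM in saline livers and 13269.9, 12722 and 13537 CPM in chow livers, so that saline and chow livers overlapped and DT 2 lay above every saline liver. Cyp3a11, the main Cyp3a of adult mouse liver, led the members per kilobase of merged annotated exons. It stood at 735 CPM per kilobase in DT, 960 in saline and 1412 in chow livers. In chow livers it was followed by Cyp2d9 at 976 and Cyp2f2 at 768 CPM per kilobase. In DT livers the next were Cyp2a5 at 472 and Cyp2d26 at 440 CPM per kilobase, and Cyp2d9 stood at 300. Merged exons span 5093 bases in Cyp3a11 and 2658 in Cyp2d9, while their longest coding transcripts span 2344 and 1712. These ranks therefore depend on the length used, that of Cyp2d9 in DT livers included.

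**Figure D1:**
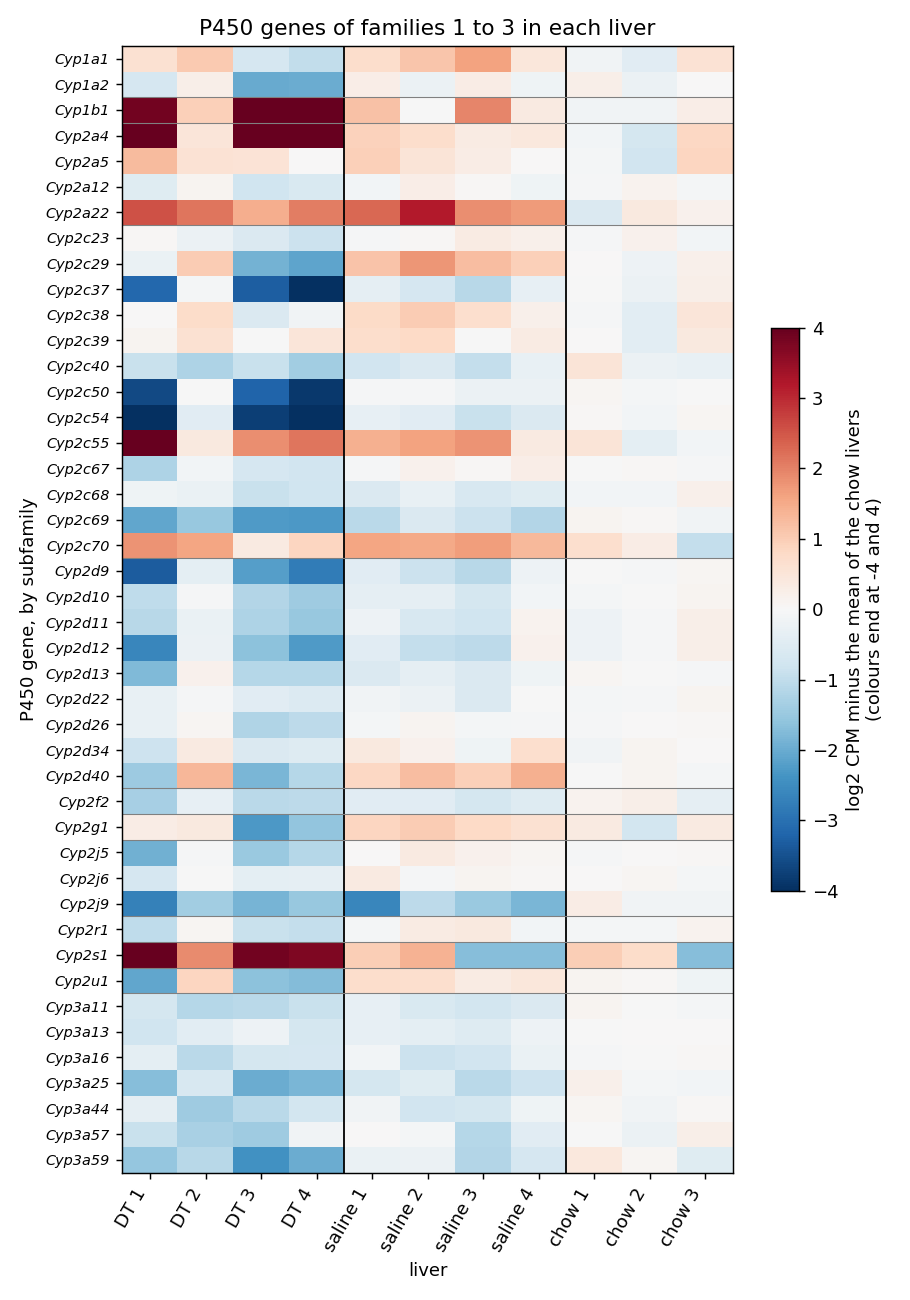
Log2 CPM of each of the 44 tested members minus its mean over chow livers, 1 row per gene by subfamily and 1 column per liver, DT left, saline in the middle and chow right; colours end at ±4. DT 2 resembles the saline columns, and over the members its median was -0.03, where DT 1, DT 3 and DT 4 had medians of -0.74, -1.08 and -0.98.

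Between DT and saline livers most P450 transcripts were on average lower after DT, but few differences exceeded the spread between livers. With edgeR's quasi-likelihood test at a Benjamini-Hochberg adjusted p of 0.05 over all genes, 9 of 44 members were called, where 21.9% of all 17038 genes were. Cyp1b1, Cyp2a4 and Cyp2s1 rose (3 of 44, with 14.3% of all genes called higher). Cyp2c67, Cyp2c69, Cyp2j5, Cyp2j6, Cyp2r1 and Cyp3a59 fell (6 of 44, with 7.62% of all genes called lower). The log2 fold change was negative for 38 of 44 members, and its median was -0.51, beside 48.4% negative and a median of 0.02 over all genes; under total count scaling 31 of 44 were negative. The groups did not overlap for 1 higher member, Cyp2s1, and for 4 lower ones, Cyp2c67, Cyp2c69, Cyp2g1 and Cyp2j5 (over all genes, 9.33% higher and 9.97% lower). Of the 44 members, 27, 34 and 32 lay below the lowest saline liver in DT 1, DT 3 and DT 4, and 10 did in DT 2. Without DT 2, 30 members were called, 4 higher and 26 lower, where 40.3% of all genes were, 56.1% of those higher. The 26 were 8 of 9 Cyp2d genes, 8 of 13 Cyp2c genes, 2 of 7 Cyp3a genes and Cyp1a2, Cyp2a12, Cyp2f2, Cyp2g1, Cyp2j5, Cyp2j6, Cyp2r1 and Cyp2u1. The count was 4 without saline 1, 3 without saline 2, 4 without saline 4, 3 without DT 3 and 3 without DT 4.

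Between saline and chow livers 2 of 44 members were called, where 5.58% of all genes were: Cyp2a22 rose (2.45% of all genes called higher) and Cyp2j9 fell (3.13% lower). The median log2 fold change over members was -0.02, beside 0.00 over all genes, and 23 of 44 were negative. Groups did not overlap for 6 members that were higher in saline (Cyp2a22, Cyp2c29, Cyp2c70, Cyp2d40, Cyp2g1, Cyp2u1) and 15 that were lower, among them 5 of 7 Cyp3a genes; over all genes these shares were 14.8% and 15.6%. The DT livers also set the spread used for this comparison: without DT 2, 8 members were called (11.4% of all genes), Cyp2a22, Cyp2d40 and Cyp2u1 higher and Cyp2c69, Cyp2f2, Cyp2j9, Cyp3a11 and Cyp3a25 lower, and with the saline and chow livers alone, 15 (20.1% of all genes). The count was 1 without chow 1, without chow 2 or without saline 4. Scaled to total counts, 3 members were called, 2 higher and 1 lower.

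Between DT and chow livers 18 of 44 members were called, where 23.0% of all genes were. Cyp1b1, Cyp2a4, Cyp2a22, Cyp2c55 and Cyp2s1 rose (5 of 44, 14.8% of all genes called higher). The 13 that fell (8.16% of all genes called lower) were Cyp2c40, Cyp2c67, Cyp2c69, Cyp2d9, Cyp2d11, Cyp2f2, Cyp2j9, Cyp3a11, Cyp3a13, Cyp3a16, Cyp3a25, Cyp3a44 and Cyp3a59. The median log2 fold change was -0.61, beside -0.02 over all genes, and 34 of 44 were negative (27 under total count scaling). Groups did not overlap for 3 higher and 15 lower members (over all genes, 14.8% and 14.4%). Scaling to total counts moved the median of all genes by 0.46 on the log2 scale in this comparison, by 0.34 in DT against saline and by 0.13 in saline against chow. It turned the 5 higher and 13 lower members of DT against chow into 7 higher and 6 lower, and upper quartile factors gave 6 higher and 7 lower. The count was 34 without DT 2 (40.3% of all genes), 11 without DT 4, 8 without chow 1, 9 without chow 2 and 10 without chow 3, and 10 with the DT and chow livers alone. Without DT 2, 5 were higher and 29 lower: 8 of 9 Cyp2d, 7 of 13 Cyp2c and 6 of 7 Cyp3a genes, with Cyp1a2, Cyp2a12, Cyp2f2, Cyp2j5, Cyp2j6, Cyp2j9, Cyp2r1 and Cyp2u1. Of all genes called in that fit, 54.6% were higher.

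**Figure D2:**
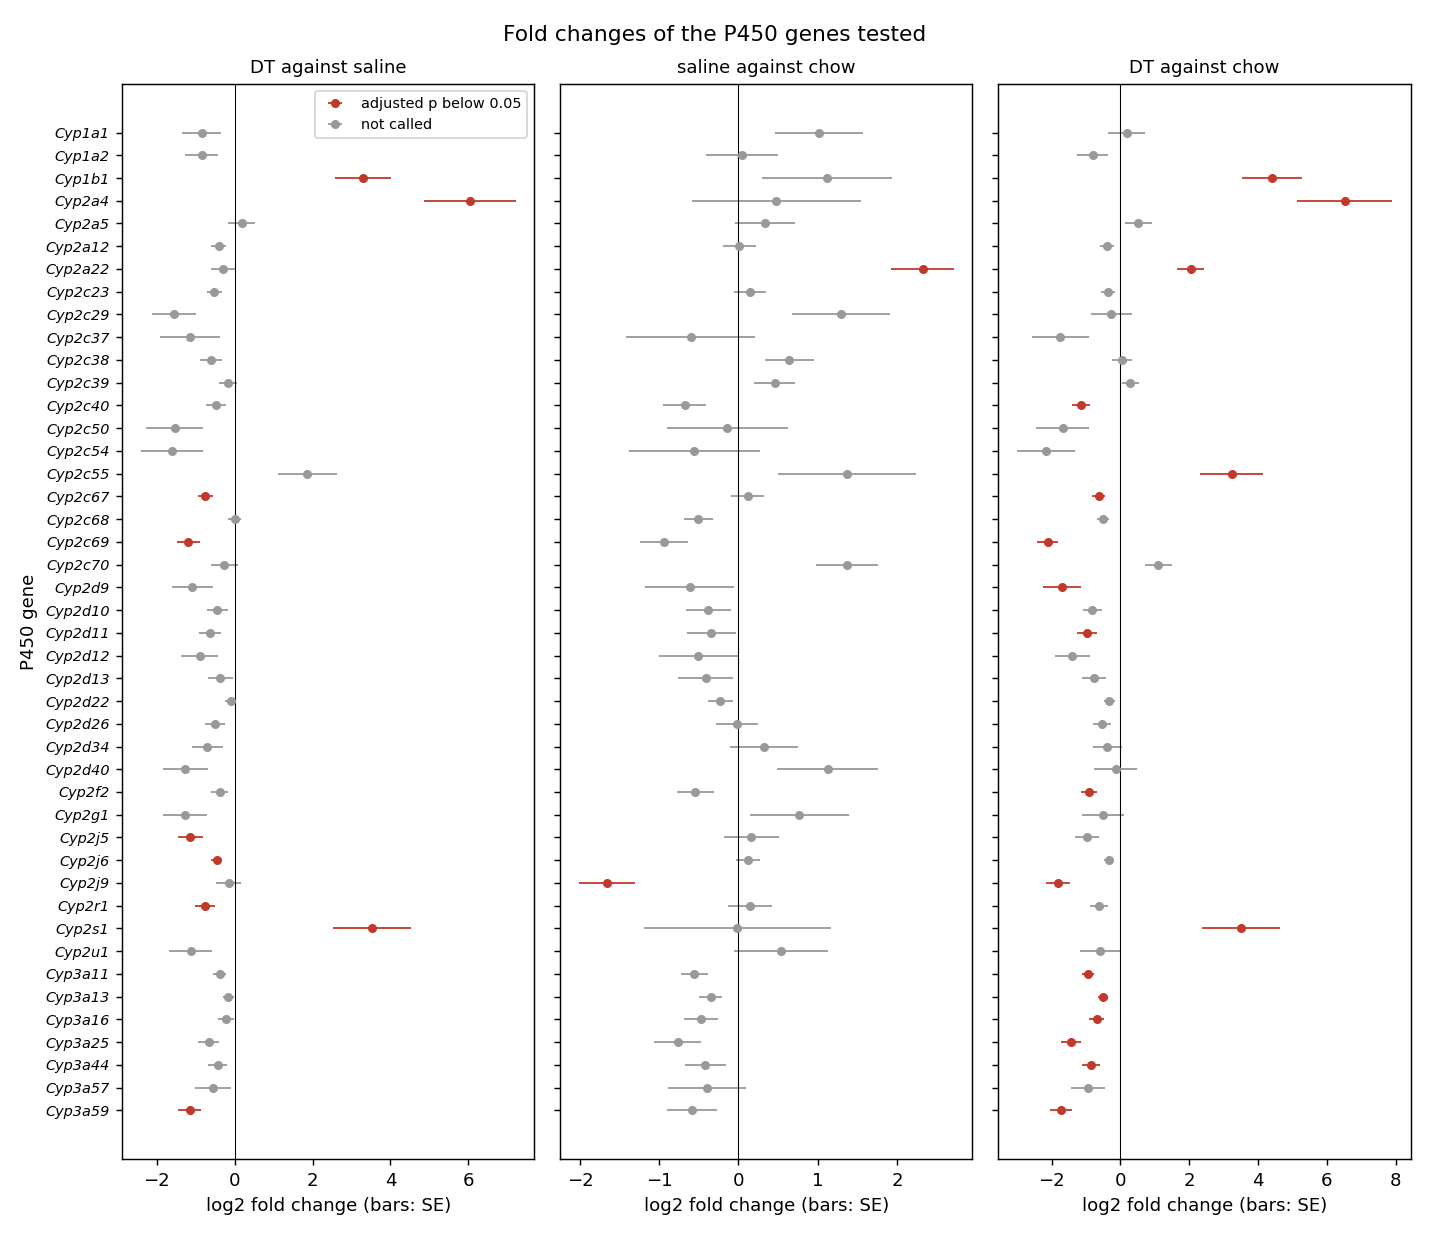
Log2 fold change with its standard error for the 44 tested members in DT against saline (left), saline against chow (middle) and DT against chow (right), on the TMM scale; red points have an adjusted p below 0.05. In DT against saline 38 of 44 points lie left of 0, while in saline against chow 23 do.

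The Cyp1 genes, classical targets of the aryl hydrocarbon receptor, gave unlike results. Cyp1a2, the hepatocyte enzyme that oxidises caffeine and arylamines, was 244, 454, 95.3 and 97.3 CPM in DT livers, against 460.5, 327, 468 and 341 CPM in saline livers and 449, 329 and 387 CPM in chow livers. DT 1, DT 3 and DT 4 lay below all other livers and DT 2 lay among them. The group difference was not called (log2 fold change -0.84, SE 0.43, adjusted p = 0.170 against saline), and without DT 2 it was -1.45 with an adjusted p of 0.00670. Cyp1a1, the inducible enzyme of the same locus on chromosome 9, stayed low in all groups, at 0.806, 1.10, 0.311 and 0.239 CPM in DT livers, 0.856, 1.14, 1.65 and 0.724 CPM in saline livers and 0.464, 0.368 and 0.784 CPM in chow livers, and was not called in any comparison. Cyp1b1, which is made mostly outside hepatocytes, in mesenchymal and endocrine tissues, was 7.10, 0.916, 13.8 and 17.3 CPM in DT livers, against 1.06, 0.447, 1.87 and 0.596 CPM in saline livers and 0.412, 0.409 and 0.554 CPM in chow livers. It was high in 3 DT livers, while DT 2 lay within the saline values. Cyp1b1 rose against saline (log2 fold change 3.29, SE 0.72, adjusted p = 0.0115) and against chow (4.41, SE 0.88, adjusted p = 0.00711). limma-voom ended both calls (adjusted p = 0.0766 and 0.105). The stellate cell and matrix marker sum was likewise lowest in DT 2 among the DT livers, and its part in the result was not tested.

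In the Cyp2a array 1 member rose far more than any other called member and its closest copy was not called. Cyp2a4, a steroid hydroxylase that female mouse livers make in far larger amounts than male ones, was 1075, 5.47, 319 and 157 CPM in DT livers, against 7.27, 6.37, 4.88 and 5.13 CPM in saline livers and 3.61, 2.33 and 6.83 CPM in chow livers. DT 1, DT 3 and DT 4 stood far above every other liver, and DT 2 lay inside the saline range. Cyp2a4 rose against saline (log2 fold change 6.04, SE 1.18, adjusted p = 0.00877) and against chow (6.51, SE 1.37, adjusted p = 0.00930). Without DT 1 these were 4.78 and 5.25 with adjusted p of 0.0158 and 0.0169, and limma-voom ended both calls (adjusted p = 0.0603 and 0.0870). Cyp2a5, the coumarin hydroxylase of the same array, was 1481, 920.4, 885 and 625 CPM in DT livers, against 1182, 880.3, 758 and 625 CPM in saline livers and 574, 358 and 1117 CPM in chow livers. Its groups overlapped, and no comparison called it (adjusted p = 0.733, 0.679 and 0.348 for DT against saline, saline against chow and DT against chow). The longest coding transcripts of the 2 genes matched at 98.3% of 1738 aligned bases, and 11.2% of the 100-base windows of Cyp2a4 also occur in Cyp2a5, so the division of reads between them is uncertain. In saline livers, 625 to 1182 CPM of Cyp2a5 stood beside 4.88 to 7.27 CPM of Cyp2a4. Cyp2a4 also overlaps Gm42375 on the other strand, and Cyp2c55, Cyp2d9, Cyp2f2 and Cyp2u1 likewise overlap a gene of the other strand, whose reads cannot be told apart without strand. On the same strand, Cyp2c29 overlaps the pseudogene Cyp2c53-ps, and Cyp2d9 overlaps Gm46501, Gm49421 and Gm27622. Cyp2d10, Cyp2d11, Cyp2d12 and Cyp3a13 also overlap a gene of their own strand, which strand could not separate.

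**Figure D3:**
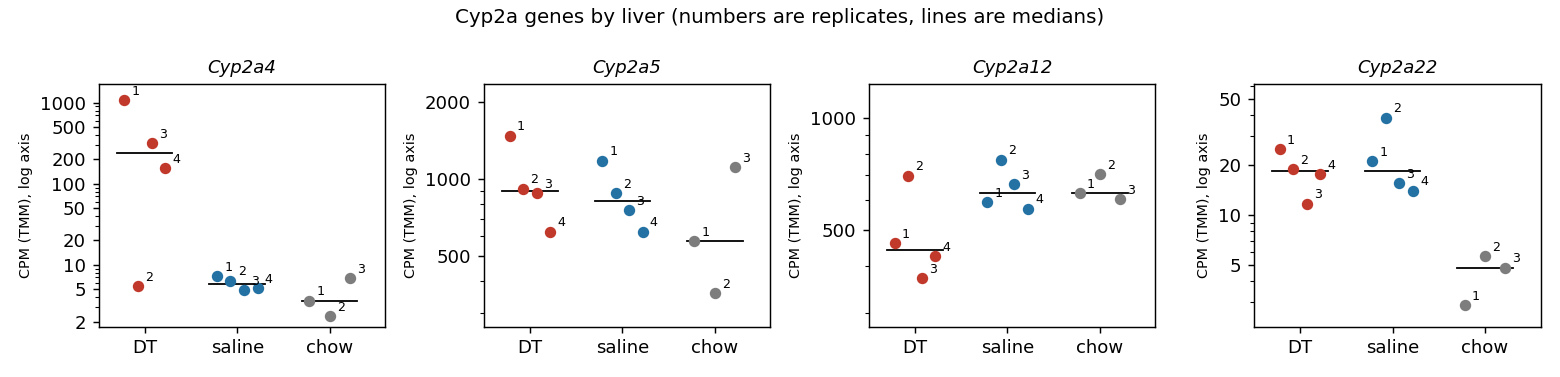
CPM of 4 Cyp2a genes on a log axis, 1 point per liver, DT left, saline in the middle and chow right, with numbers as replicates and lines at the group medians. Cyp2a4 ranges from 5.47 to 1075 CPM over DT livers while Cyp2a5 stays between 358 and 1481 CPM in all 11 livers.

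Cyp2a22 set the dieted mice apart from chow. It was 25.0, 19.0, 11.8 and 17.7 CPM in DT livers and 21.1, 38.7, 15.6 and 14.0 CPM in saline livers, against 2.88, 5.65 and 4.85 CPM in chow livers, with every dieted liver above every chow liver. It rose in saline against chow (log2 fold change 2.32, SE 0.39, adjusted p = 0.00723) and in DT against chow (2.04, SE 0.39, adjusted p = 0.00616), and both calls stood under each alternative and with each library left out. DT and saline livers overlapped (adjusted p = 0.555). Cyp2a22 overlaps the pseudogene Cyp2a21-ps on the other strand. Its transcript is 96.5% identical to that of the far more abundant Cyp2a12, so its counts are uncertain. Its nearest member, the steroid hydroxylase Cyp2a12, was 461, 699, 372 and 425 CPM in DT livers, against 594, 771, 662 and 571 CPM in saline livers and 628, 706 and 604 CPM in chow livers. Cyp2a12 was below all saline and chow livers in DT 1, DT 3 and DT 4 and not in DT 2, and it was not called in any comparison (adjusted p = 0.143, 0.990 and 0.180). Without DT 2 it was called lower against saline (-0.63, adjusted p = 0.00335) and against chow (-0.62, adjusted p = 0.00494).

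Among 13 tested Cyp2c genes, which oxidise arachidonic acid and many drugs, the neighbours Cyp2c37, Cyp2c50 and Cyp2c54 on chromosome 19 had the lowest values relative to chow, gene by gene, in DT 1 and DT 3 (Cyp2c54) and DT 4 (Cyp2c37). Cyp2c37 was 58.8, 499, 52.8 and 17.7 CPM in DT livers, against 405, 326, 244 and 411 CPM in saline livers and 515, 448 and 615 CPM in chow livers. Cyp2c50 was 75.1, 921, 101 and 63.3 CPM in DT livers, against 894, 902, 779 and 784 CPM in saline livers and 986, 885 and 906 CPM in chow livers. Cyp2c54 was 14.3, 252, 25.3 and 14.4 CPM in DT livers, against 274, 248, 185 and 227 CPM in saline livers and 352, 319 and 358 CPM in chow livers. In all 3 genes DT 1, DT 3 and DT 4 lay far below every other liver and DT 2 did not. With all 4 DT livers none of them was called by edgeR against saline (adjusted p = 0.301, 0.146 and 0.158) or against chow (0.144, 0.135 and 0.0826). On the same livers limma-voom called Cyp2c50 and Cyp2c54 lower against saline (adjusted p = 0.0412 and 0.0325) and against chow (0.0473 and 0.0270). Without DT 2 the log2 fold changes against saline were -3.01, -3.40 and -3.70, with adjusted p of 4.31e-04, 8.03e-07 and 2.95e-06, and those against chow were -3.61, -3.54 and -4.25. The transcripts of Cyp2c37 and Cyp2c50 are 95.8% identical and those of Cyp2c50 and Cyp2c54 95.0%, so the division of reads among the 3 is uncertain. The 8 pericentral hepatocyte markers, none of them a member, summed to 1596, 3366, 988 and 761 CPM in DT livers, 2768 to 5058 CPM in saline livers and 2621 to 3342 CPM in chow livers. That sum was also lowest in DT 1, DT 3 and DT 4, and its part in the result was not tested.

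Cyp2c29, an epoxygenase known to respond to CAR and PXR ligands, was 466, 1146, 151 and 132 CPM in DT livers, against 1250.5, 1904, 1325 and 1093 CPM in saline livers and 569, 489 and 649 CPM in chow livers. All saline livers were above all chow livers, 3 DT livers lay below all chow livers, and DT 2 stood with saline. Neither DT against saline (log2 fold change -1.56, SE 0.57, adjusted p = 0.0684) nor saline against chow (1.29, SE 0.62, adjusted p = 0.263) was called by edgeR over all livers. With all livers limma-voom called Cyp2c29 lower against saline (-2.04, adjusted p = 0.0403). The saline and chow livers alone called it higher in saline against chow (0.00261). Without DT 2 the difference from saline was -2.48 with an adjusted p of 0.00211. Cyp2c70, which makes the muricholic acids of rodent bile, was 236, 203, 87.9 and 123 CPM in DT livers, against 202, 194, 217 and 169 CPM in saline livers and 108, 83.9 and 34.8 CPM in chow livers. Every saline liver exceeded every chow liver, but saline against chow missed the threshold (log2 fold change 1.37, SE 0.39, adjusted p = 0.0623), as did DT against chow (1.10, SE 0.38, adjusted p = 0.0567). DESeq2 (0.00497), total count scaling (0.0443) and the 2 groups alone (0.0481) called Cyp2c70 higher in saline against chow. In DT against chow DESeq2 (0.0141), total count scaling (0.0108) and upper quartile factors (0.0464) called it higher. In DT 1, where Cyp2c37, Cyp2c50 and Cyp2c54 were all low, Cyp2c70 was above every saline liver.

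Of the lesser Cyp2c genes, Cyp2c67 was 56.7, 123, 84.2 and 78.5 CPM in DT livers, against 130.2, 149, 138 and 159.8 CPM in saline livers and 132, 137 and 130.1 CPM in chow livers, with every DT liver below the rest. Cyp2c67 fell against saline (log2 fold change -0.75, SE 0.19, adjusted p = 0.0184), a call lost without saline 2 (adjusted p = 0.0516) or saline 4 (0.0552). Its fall against chow (-0.64, adjusted p = 0.0415) held in 1 of 11 refits that left out a library, that without DT 2, with adjusted p up to 0.115 without chow 2, and ended under total count scaling (0.299), upper quartile factors and the 2 groups alone. Cyp2c69 was low throughout, 0.313, 0.479, 0.268 and 0.265 CPM in DT livers, against 0.652, 0.956, 0.768 and 0.618 CPM in saline livers and 1.55, 1.47 and 1.29 CPM in chow livers. Its 3 groups did not overlap, with DT below saline and saline below chow in every liver, and no other of the 44 tested members was ordered in this way. Cyp2c69 fell against saline (-1.18, SE 0.30, adjusted p = 0.0181) and against chow (-2.12, SE 0.31, adjusted p = 0.00322). The call against saline was lost without saline 2 (adjusted p = 0.0582), DT 3 (0.0567) or DT 4 (0.0561). Cyp2c40 fell against chow (-1.15, adjusted p = 0.0135), with DT livers at 1.14 to 1.64 CPM and chow livers at 2.49 to 4.40 CPM, and was not called without chow 1 (0.0771) or under total count scaling (0.0857). Cyp2c40 and Cyp2c69 are 97.8% identical and share 29.5% of the 100-base windows of Cyp2c69. Far more abundant copies are as close. Cyp2c68, at 68.8 to 147 CPM, is 98.0% identical to Cyp2c40 and shares 16.0% of its windows. Cyp2c67 is 97.5% identical to Cyp2c69 and shares 15.1% of its windows. The counts of Cyp2c40 and Cyp2c69 are therefore uncertain. Cyp2c55, an arachidonic acid hydroxylase better known from the large intestine, was 29.4, 1.33, 3.73 and 4.57 CPM in DT livers, against 2.73, 3.11, 3.57 and 1.30 CPM in saline livers and 1.44, 0.757 and 0.923 CPM in chow livers. It rose against chow (3.24, SE 0.92, adjusted p = 0.0278), by 1.65 without DT 1, and the call was lost without chow 1, chow 2 or chow 3 (adjusted p = 0.0737, 0.100 and 0.0936). It also ended with no filter (0.0965), limma-voom (0.161) and the 2 groups alone (0.0782). Cyp2c23, Cyp2c38, Cyp2c39 and Cyp2c68 were not called in any comparison. Without DT 2, Cyp2c23 (-0.56, adjusted p = 0.0386) and Cyp2c38 (-0.90, adjusted p = 0.0154) were called lower and Cyp2c55 (2.23, adjusted p = 0.0314) higher against saline, and Cyp2c68 was called lower against chow (-0.58, adjusted p = 0.0250).

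**Figure D4:**
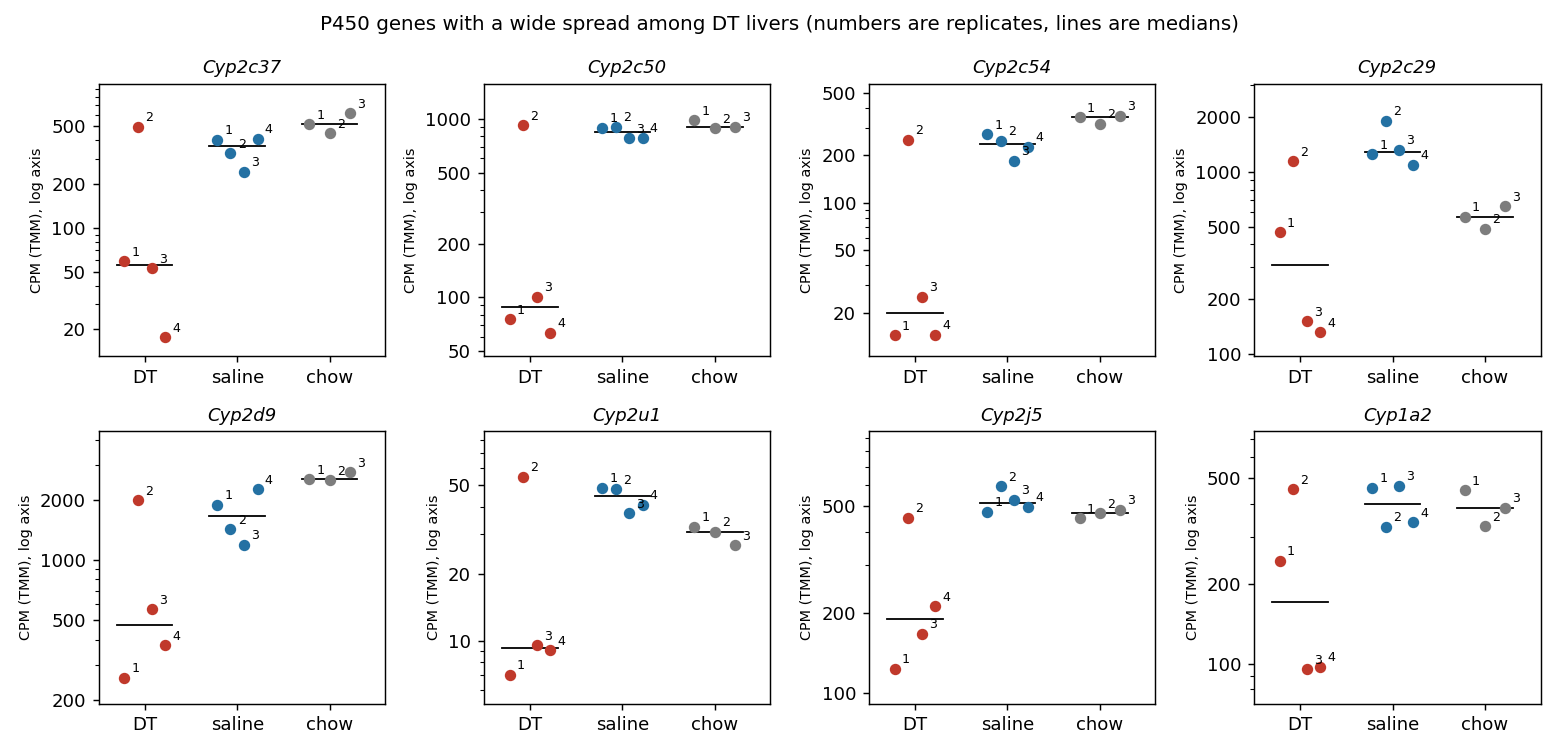
CPM of Cyp2c37, Cyp2c50, Cyp2c54, Cyp2c29, Cyp2d9, Cyp2u1, Cyp2j5 and Cyp1a2 on log axes, 1 point per liver, DT left, saline in the middle and chow right, with numbers as replicates and lines at the group medians. In each panel 1 DT liver, DT 2, lies highest of its group and the other 3 lie below all saline livers; for Cyp2j5 DT 2 is also below them.

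All 9 tested Cyp2d genes, the array on chromosome 15 that holds the mouse counterparts of human CYP2D6, were on average lower in DT livers in both contrasts, except under total count scaling, which left 8 of 9 negative against saline and 6 of 9 against chow. With all livers 2 were called, both against chow, and 0 of 9 against saline by edgeR or DESeq2, 1 by limma-voom and 2 at an unadjusted p under 0.05. Without DT 2, 8 of 9 were called lower against saline, all but Cyp2d22, and 8 of 9 against chow, all but Cyp2d34. In each of these comparisons 40.3% of all genes were then called in either direction, 56.1% of them higher against saline and 54.6% against chow. Cyp2d9, a steroid hydroxylase known for its male bias, was 258, 1993, 566 and 375 CPM in DT livers, against 1888, 1426, 1191 and 2263 CPM in saline livers and 2538, 2498 and 2749 CPM in chow livers. All dieted livers lay below all chow livers, and DT 1, DT 3 and DT 4 lay below all saline livers. Cyp2d9 fell against chow (log2 fold change -1.70, SE 0.56, adjusted p = 0.0479) and was not called against saline (-1.08, SE 0.52, adjusted p = 0.153), where the value without DT 2 was -2.08 with an adjusted p of 2.83e-04. The call against chow held in 1 of 11 refits, that without DT 2 (log2 fold change -2.70), and reached an adjusted p of 0.127 without DT 4; RLE factors (0.0506), upper quartile factors, no filter and the 2 groups alone also ended it. Cyp2d11 fell against chow (-0.97, adjusted p = 0.0396), with DT livers at 2.62 to 6.20 CPM and chow livers at 6.54 to 8.86 CPM, and kept its call in the 3 refits without saline 3, saline 4 or DT 2, with adjusted p up to 0.133 without chow 3. Total count scaling (0.101), upper quartile factors and the 2 groups alone ended it as well.

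Cyp2d10 was 373, 728, 334 and 285 CPM in DT livers, against 586, 590.3, 463 and 697 CPM in saline livers and 710.2, 747 and 821 CPM in chow livers. It was below every chow liver in every saline liver and in DT 1, DT 3 and DT 4, and it missed the threshold against chow in DT livers (log2 fold change -0.82, SE 0.28, adjusted p = 0.0540). DESeq2 (0.0260) and limma-voom (0.0494) called Cyp2d10 lower in DT against chow. Cyp2d22 was 286, 338, 259.5 and 239 CPM in DT livers, against 321, 301, 236 and 346 CPM in saline livers and 334, 342 and 382 CPM in chow livers. Its log2 fold changes were -0.10 (SE 0.15) in DT against saline and -0.33 (SE 0.16) in DT against chow, neither was called, and under total count scaling both were positive. Cyp2d40 differed from Cyp2d9 and Cyp2d10 in its order, at 15.1, 106, 11.8 and 19.0 CPM in DT livers, 74.2, 98.2, 80.9 and 111 CPM in saline livers and 41.3, 44.7 and 39.4 CPM in chow livers. It was higher in every saline liver than in every chow liver, was low in 3 DT livers, and was not called (adjusted p = 0.133, 0.347 and 0.887). Without DT 2 it was called lower against saline (-2.57, adjusted p = 5.93e-06) and against chow (-1.45, adjusted p = 1.46e-04), and higher in saline against chow (1.12, adjusted p = 0.00278). The other 4, Cyp2d12, Cyp2d13, Cyp2d26 and Cyp2d34, had log2 fold changes from -0.90 to -0.37 in DT against saline and were not called. Without DT 2 these values were -1.64, -0.91, -0.78 and -1.05, with adjusted p of 0.00242, 0.00105, 0.00759 and 0.0471.

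Of the remaining Cyp2 genes, Cyp2f2 and Cyp2j9 fell in DT against chow, Cyp2j5, Cyp2j6 and Cyp2r1 fell in DT against saline, and Cyp2s1 rose in both. Cyp2f2, the naphthalene-oxidising enzyme of periportal hepatocytes and airway cells, was 609, 1212, 724 and 735 CPM in DT livers, against 1113, 1130.0, 946 and 1078 CPM in saline livers and 1672, 1789 and 1202 CPM in chow livers. Saline livers lay below chow livers, 3 DT livers lay below saline livers, and DT 2 lay above them. Cyp2f2 fell in DT against chow (log2 fold change -0.92, SE 0.23, adjusted p = 0.0165), a call lost without chow 1 (0.0651), without chow 2 (0.0710) or with the 2 groups alone (0.0619). The 8 periportal hepatocyte markers moved otherwise, summing to 19988, 11699.5, 18217 and 13260.4 CPM in DT livers, 9064 to 15215 CPM in saline livers and 18724 to 22472 CPM in chow livers, and their part was not tested. Cyp2j5, an epoxygenase of liver and kidney, was 123, 453, 167 and 211 CPM in DT livers, against 476, 594, 528 and 497 CPM in saline livers and 449, 469 and 484 CPM in chow livers. All DT livers were below all saline livers, with DT 2 closest. Cyp2j5 fell against saline (-1.13, SE 0.32, adjusted p = 0.0286), and not past the threshold without saline 1 (0.0527), saline 2 (0.0753), saline 4 (0.0608), DT 3 (0.0785) or DT 4 (0.0785), with no filter (0.0569) or with the 2 groups alone (0.0564).

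Cyp2j6 fell in DT livers by a smaller step, at 43.7 to 69.1 CPM, against 67.5 to 89.1 CPM in saline livers (-0.46, SE 0.14, adjusted p = 0.0373). That call held in 1 of 11 refits, that without DT 2, reached 0.102 without saline 1, and ended under total count scaling (0.380), upper quartile factors and the 2 groups alone. Cyp2j9 was instead low in both dieted groups, at 2.37, 5.87, 4.28 and 5.37 CPM in DT livers and 2.55, 7.44, 5.56 and 4.34 CPM in saline livers, against 19.2, 14.1 and 14.0 CPM in chow livers. Every dieted liver, DT 2 included, lay below every chow liver. Cyp2j9 fell in saline against chow (log2 fold change -1.66, SE 0.35, adjusted p = 0.0193) and in DT against chow (-1.82, SE 0.35, adjusted p = 0.00648). The first of these was lost without chow 1 (0.0966), chow 2 (0.0595) or saline 4 (0.0559), and the second stood in all refits. DT and saline livers overlapped (adjusted p = 0.758).

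Cyp2r1, which hydroxylates vitamin D in liver, was 3.09, 6.66, 3.37 and 3.21 CPM in DT livers, against 5.91, 7.87, 8.19 and 5.73 CPM in saline livers and 5.97, 5.91 and 6.90 CPM in chow livers, with DT 2 inside the other groups and 3 DT livers below them. Cyp2r1 fell against saline (-0.77, SE 0.25, adjusted p = 0.0493), a call just past the threshold that held only in the refit without DT 2, reached 0.126 without DT 4, and ended under total count scaling (0.0967), upper quartile factors, either other filter and the 2 groups alone. Cyp2u1, a fatty acid hydroxylase, was 7.03, 54.5, 9.56 and 9.05 CPM in DT livers, against 48.7, 48.1, 37.4 and 40.9 CPM in saline livers and 32.6, 30.9 and 26.9 CPM in chow livers. Cyp2u1 was not called by edgeR against saline (-1.13, SE 0.55, adjusted p = 0.153), while limma-voom with all livers called it lower (-1.77, adjusted p = 0.0274). Without DT 2 the difference was -2.35 with an adjusted p of 2.70e-06. Cyp2s1, an enzyme of epithelia, was the 1 member higher in every DT liver than in every saline liver, at 1.90, 0.416, 1.75 and 1.59 CPM in DT livers, against 0.204, 0.285, 0 and 0 CPM in saline livers and 0.206, 0.164 and 0 CPM in chow livers. It had no count in saline 3, saline 4 and chow 3, where the limit of 3 counts lies within 0.0398 to 0.0773 CPM. Cyp2s1 rose against saline (3.52, SE 1.00, adjusted p = 0.0287; 4.35 without saline 2) and against chow (3.51, SE 1.13, adjusted p = 0.0449). The call against saline was lost without saline 1, saline 3, saline 4, DT 1, DT 3 or DT 4 (adjusted p from 0.0512 to 0.0699) and with no filter (0.0581). That against chow was lost without saline 1, any chow liver, DT 1, DT 3 or DT 4 (from 0.0595 to 0.126), with no filter (0.0892) and by limma-voom (0.0600). It overlaps Gm45226 and Gm26707 on the other strand, and the cholangiocyte marker sum, also high in DT 1, DT 3 and DT 4, was not tested for its part in it. Cyp2g1, an enzyme of olfactory mucosa, stayed at or under 1.46 CPM in all livers and was not called, but without DT 2 it was called lower against saline (-1.68, adjusted p = 0.0385).

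The Cyp3a genes, which carry out most steroid and drug hydroxylation of the family in liver, were lower in DT livers than in chow livers: 6 of 7 fell in DT against chow (3 with upper quartile factors, 2 under total count scaling) and 1 of 7 fell in DT against saline. Without DT 2 these counts were 6 and 2. In saline against chow 0 of 7 was called by edgeR or limma-voom and 1 by DESeq2, with 4 of 7 at an unadjusted p under 0.05 and 2, Cyp3a11 and Cyp3a25, called lower without DT 2. All 7 log2 fold changes were negative in each of the 3 comparisons, except Cyp3a13 and Cyp3a16 in DT against saline under total count scaling. Cyp3a11, the main target of PXR among them, was 4457, 3254, 3378 and 3892 CPM in DT livers, against 5676, 4737, 4331 and 4808 CPM in saline livers and 7717, 7101 and 6761 CPM in chow livers. Chow livers were above all others, DT and saline livers overlapped, and DT 2 was the lowest of all 11. Cyp3a11 fell in DT against chow (log2 fold change -0.94, SE 0.17, adjusted p = 0.00549), a call lost under total count scaling (0.0572). It was not called by edgeR in saline against chow (-0.56, SE 0.17, adjusted p = 0.0875) or in DT against saline (-0.38, SE 0.16, adjusted p = 0.106). DESeq2 called Cyp3a11 lower in both (adjusted p = 0.00603 and 0.0286), and the saline and chow livers alone called it lower in saline against chow (0.00921).

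Cyp3a25 was 289, 602, 236 and 263 CPM in DT livers, against 569, 669, 442 and 523 CPM in saline livers and 1074, 879 and 861 CPM in chow livers. All dieted livers were below all chow livers, and DT 2 was the 1 DT liver inside the saline range. Cyp3a25 fell in DT against chow (log2 fold change -1.43, SE 0.29, adjusted p = 0.00779), and was not called against saline (adjusted p = 0.0994), where the log2 fold change without DT 2 was -1.07 with an adjusted p of 3.41e-04. Its close copy Cyp3a59, 97.0% identical in its transcript, was 24.2, 32.7, 13.2 and 17.8 CPM in DT livers, against 59.1, 59.8, 31.4 and 44.5 CPM in saline livers and 95.3, 74.4 and 50.2 CPM in chow livers. Cyp3a59 fell against chow (-1.74, SE 0.32, adjusted p = 0.00547) and against saline (-1.15, SE 0.30, adjusted p = 0.0206). The call against saline was lost without saline 1 (0.0564), saline 2 (0.0627), DT 3 (0.0607) or DT 4 (0.0742), and with no filter (0.0524). The 2 genes share 5.58% of the 100-base windows of Cyp3a25, so part of their counts may be divided between them.

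Cyp3a13, which lies apart from the main array, was 121, 158, 181 and 129.7 CPM in DT livers, against 169, 162, 147 and 183 CPM in saline livers and 207, 213 and 211 CPM in chow livers. All dieted livers lay below all chow livers. Cyp3a13 fell in DT against chow (log2 fold change -0.51, SE 0.15, adjusted p = 0.0279). Cyp3a16 (-0.69, SE 0.21, adjusted p = 0.0375) and Cyp3a44 (-0.85, SE 0.26, adjusted p = 0.0354), low in males, fell as well, at 3.72 to 5.93 and 2.48 to 5.25 CPM in DT livers and 7.65 to 8.12 and 6.10 to 7.16 CPM in chow livers. These 3 calls were lost without any 1 chow liver or DT 4 (adjusted p from 0.0704 to 0.106), Cyp3a13 also without DT 1 (0.0550), and Cyp3a16 and Cyp3a44 without DT 3 (0.0959 and 0.110). Total count scaling ended all 3 (0.796, 0.531 and 0.356), as did upper quartile factors and the 2 groups alone, and no filter ended that of Cyp3a16 (0.0562). Cyp3a57 was not called in any comparison.

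**Figure D5:**
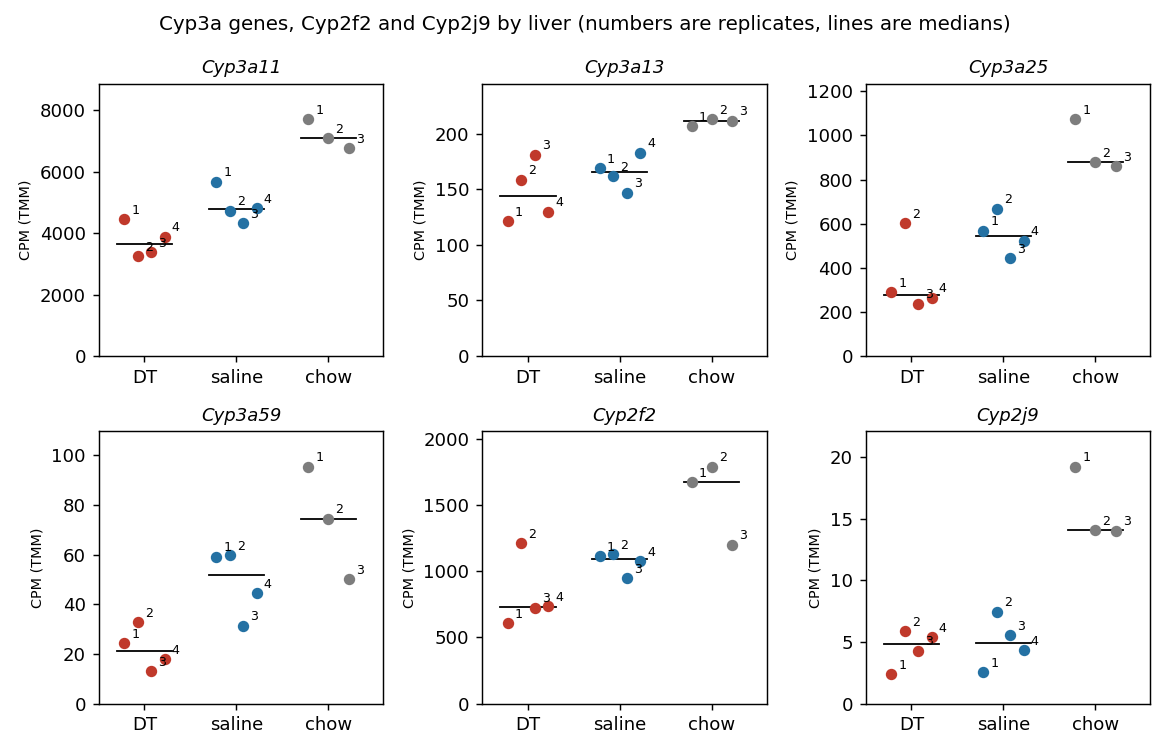
CPM of Cyp3a11, Cyp3a13, Cyp3a25, Cyp3a59, Cyp2f2 and Cyp2j9 from 0, 1 point per liver, DT left, saline in the middle and chow right, with numbers as replicates and lines at the group medians. Chow livers lie highest in Cyp3a11, Cyp3a13, Cyp3a25 and Cyp2j9, and DT and saline livers overlap in all 6 panels.

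Some called members have a known sex bias in mouse liver. Of 5 female-biased ones, chosen among the called members, Cyp2a4 rose in DT livers against both other groups, while Cyp2c69 fell against both and Cyp2c40, Cyp3a16 and Cyp3a44 fell against chow. The male-biased Cyp2d9 fell against chow. Cux2, a repressor known for its female bias in mouse liver, was 22.8, 4.60, 6.21 and 2.04 CPM in DT livers, against 0.571, 0.264, 0.695 and 0.511 CPM in saline livers and 13.9, 21.7 and 2.24 CPM in chow livers. Saline livers were below all others, and DT and chow livers overlapped. Cux2 rose in DT against saline (log2 fold change 4.12, SE 0.85, adjusted p = 0.00943) and fell in saline against chow (-4.62, SE 0.88, adjusted p = 0.0126; 0.0549 without chow 2). limma-voom called Cux2 in neither. Cyp2a4 and Cux2 were both called higher in DT than in saline livers. Chow livers held Cux2 at 2.24 to 21.7 CPM with Cyp2a4 at 2.33 to 6.83 CPM, and a link between the 2 genes was not tested. The choice of these sex-biased members was made from general knowledge of mouse liver, with results of these data in view.

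Among the partners of the P450 enzymes, Alas1, the rate-limiting enzyme of heme synthesis, was 241, 272, 294 and 286 CPM in DT livers, against 648, 482, 849 and 1254 CPM in saline livers and 321, 344 and 642 CPM in chow livers. All DT livers, DT 2 included, were below all saline and chow livers. Alas1 fell against saline (log2 fold change -1.56, SE 0.30, adjusted p = 0.00782) in all 11 refits. Of 6 genes for electron supply and heme, 3 fell in DT against saline, the others being Cyb5b (-0.73, adjusted p = 0.0230) and Pgrmc1 (-0.56, adjusted p = 0.0450). Those calls held in 7 and 1 of the 11 refits, with adjusted p up to 0.0712 without DT 3 and 0.107 without saline 2, and ended under total count scaling (0.0945 and 0.161). Por, the common electron donor, was not called (log2 fold change 0.01, adjusted p = 0.978). In DT against chow Pgrmc1 alone of the 6 fell (-0.58, adjusted p = 0.0496), and in saline against chow 0 of 6 was called by edgeR or limma-voom and 2 by DESeq2, with 3 at an unadjusted p under 0.05. Without DT 2, 5 of the 6, all but Por, were called lower against saline, 2 against chow, and 1 was called higher in saline against chow.

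Of 5 tested receptors and partners, Nr1i2, which encodes PXR, was 95.4, 109, 101 and 83.1 CPM in DT livers, against 61.0, 72.5, 74.6 and 79.9 CPM in saline livers and 105, 113 and 117 CPM in chow livers. Every saline liver was below every other liver. Nr1i2 rose in DT against saline (log2 fold change 0.43, SE 0.12, adjusted p = 0.0225; 7 of 11 refits, up to 0.0652 without saline 1) and fell in saline against chow (-0.63, SE 0.12, adjusted p = 0.0138; 9 of 11 refits, up to 0.0645 without chow 2). Its target Cyp3a11 had a different order over the groups, and a link between the 2 transcripts was not tested. Nr1i3, which encodes CAR, was 97.0, 354, 85.5 and 75.2 CPM in DT livers, against 247, 280.1, 241 and 298 CPM in saline livers and 389, 384 and 436 CPM in chow livers. It was low in the 3 DT livers in which Cyp2c37, Cyp2c50 and Cyp2c54 were low, and its part in those values was not tested. Nr1i3 fell in DT against chow (-1.40, SE 0.45, adjusted p = 0.0435; 1 of 11 refits, up to 0.117 without DT 3). Rxra, the common partner of both receptors, fell in DT against saline (-0.58, adjusted p = 0.0218; 9 of 11 refits, up to 0.0667 without saline 4, and 0.116 under total count scaling), while Ahr (-0.50, adjusted p = 0.0994) and Arnt were not called, and Ahrr was too low to test. Without DT 2, Nr1i3 (-1.63, adjusted p = 8.58e-06) and Ahr (-0.74, adjusted p = 0.00417) were also called lower against saline. Of 8 liver factors, Cux2 rose and Cebpa, a factor of mature hepatocytes, fell in DT against saline. Cebpa was 293, 459.9, 268 and 271 CPM in DT livers, against 633, 603, 641 and 644 CPM in saline livers and 425, 354 and 419 CPM in chow livers (-0.96, SE 0.18, adjusted p = 0.00703 against saline; 11 of 11 refits). Hnf4a fell in DT against chow (-0.62, adjusted p = 0.0360; 3 of 11 refits, up to 0.125 without chow 3, and 0.367 under total count scaling), and the other 5, Cebpb, Foxa2, Onecut1, Stat5b and Bcl6, were not called in any comparison, with or without DT 2. Without it Cebpa was also called lower in DT against chow and higher in saline against chow, and Hnf4a lower in saline against chow.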

How the data were processed

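The measurements are raw counts per Ensembl gene and library, 11 columns for 55414 genes, as deposited by the authors. The submitters' processing notes name FastQC, STAR, featureCounts and the build GRCm39. Versions, annotation, strand setting and the counting of shared reads and of mates are not given in the sources used here. The labels name poly(A) RNA of whole liver, and their extraction text, which describes sorted CD45-positive cells, was read as belonging to single-cell work of the same study. Between 76.6% and 81.5% of counts from 1 to 20 were even, so both mates of a pair may have been counted, and halved counts were tried. No 2 libraries of a group agreed within counting noise (lowest chi-square per degree of freedom 27.7).

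Genes passing edgeR's filterByExpr (17038 of 28842 with any count) were scaled by TMM. They were fitted with 1 mean per group over all 11 livers by edgeR's quasi-likelihood method with robust estimates (R 4.3.3, edgeR 4.0.16 and limma 3.58.1; 8 residual degrees of freedom). Tests were two-sided, adjusted by Benjamini-Hochberg over all genes within each comparison and called at 0.05. The p-values measure the spread between these livers. CPM are counts scaled to the TMM-adjusted library size, with a prior count of 2 on the log2 scale. The limit of 3 counts lies at 0.0398 to 0.0773 CPM and covers counting error only. The calling was tested on simulated counts.

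The members and lists were chosen with earlier results of these data known. One gene of the liver factor list is not reported here. Every liver's value is given for 21 members taken for their roles, and for the 3 largest called rises and falls per comparison among members whose log2 CPM averaged 2 or more. Other called members are named because the counts are small, and further ones were chosen after their values were seen. Alternatives were RLE, total count and upper quartile scaling, other filters, DESeq2 1.42.0, limma-voom, a replicate block, halved counts, fits of the compared groups alone and leaving out each library. Levels per kilobase use exon lengths and overlaps of GENCODE M21 (GRCm38), which held 48 of the 49 members, not the authors' annotation.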

Additional observations from a re-analysis of the deposited data

Results flagged for a closer look

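In 6 of the 24 members described by liver, the highest DT value lay farther from its neighbours than Dixon's 95% criterion for 4 samples allows. All 6 were in DT 2. Of 48 groups of DT and saline livers examined, chance marks about 1 in 20, and these genes are not independent, since all rest on the same liver. Cyp2c37 was 499 CPM in DT 2, against 17.7 to 58.8 CPM in the other DT livers. Cyp2c50 was 921 CPM there, against 63.3 to 101 CPM. Cyp2c54 was 252 CPM, against 14.3 to 25.3 CPM. Cyp2u1 was 54.5 CPM, against 7.03 to 9.56 CPM. Cyp2r1 was 6.66 CPM, against 3.09 to 3.37 CPM. Cyp3a25 was 602 CPM, against 236 to 289 CPM. In saline livers no value was marked, and chow livers, with 3 samples, were not examined.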

How the results depend on the processing

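In DT against saline 9 members were called, and 5 with no filter on low counts. Leaving out 1 library gave 3 to 30. In saline against chow 2 were called, 5 by DESeq2 and 15 with these groups alone; leaving out 1 library gave 1 to 8. In DT against chow 18 were called and 10 with these groups alone; leaving out 1 library gave 8 to 34. Other settings stayed within 1.5 times of these counts, but the members called could differ. With limma-voom 1 member was called higher and 12 lower in DT against saline, and 7 of these were among the 9. In DT against chow it called 1 higher and 18 lower, and 14 of these were among the 18 of the main fit. With the replicate number as a block, 10, 3 and 15 members were called, of which 8, 2 and 14 were among those called without it; those not called with it were Cyp2j6 (adjusted p = 0.0690) in DT against saline and Cyp2d9 (0.0580), Cyp2d11 (0.0806), Cyp3a13 (0.0737) and Cyp2s1 (0.0717) in DT against chow. Livers with the same number did not deviate together (correlations from -0.16 to 0.18), so the numbers were not taken as pairs, and the block also turned the log2 fold change of Cyp2c50 (0.060 in place of -0.14), Cyp2d26 and Cyp2s1 in saline against chow and of Cyp2c68 in DT against saline. Over the 44 tested members, no called one changed direction under any setting run. Total count scaling turned uncalled values positive for Cyp2c70 (0.041), Cyp2d22 (0.22), Cyp3a13 (0.18), Cyp2a22 (0.049), Cyp2j9 (0.17), Cyp2c39 (0.16) and Cyp3a16 (0.14) in DT against saline, for Cyp2a12 (0.025), Cyp2c29 (0.059), Cyp2d22 (0.11), Cyp2c23 (0.079), Cyp2d34 (0.040), Cyp2d40 (0.16) and Cyp2j6 (0.11) in DT against chow, and for Cyp2d26 and Cyp2s1 (both 0.10) in saline against chow. limma-voom gave Cyp1a1 -0.10 in DT against chow and turned Cyp2c68 in DT against saline, and RLE factors, upper quartile factors and DESeq2 turned Cyp2s1 in saline against chow. Log2 fold changes spanned 0 when each library was left out in turn for Cyp1a1 -0.26 to 0.55, Cyp2c29 -1.19 to 0.071 in DT against chow, and for Cyp2a22 -0.46 to 0.12, Cyp2a5 -0.079 to 0.37, Cyp2j9 -0.37 to 0.10 in DT against saline, and for Cyp1a2 -0.065 to 0.16, Cyp2a12 -0.084 to 0.078 in saline against chow. The sign also turned in at least 1 such fit for Cyp2c38 and Cyp2d40 in DT against chow, Cyp2c68 in DT against saline, and Cyp2d26 and Cyp2s1 in saline against chow. DESeq2 gave no adjusted p for Cyp2c37, Cyp2c50, Cyp2c54 and Cyp2u1. The cause of these changes was not tested. Libraries of a group differed by at least 27.7 times counting noise (chi-square per degree of freedom). Cyp2s1, with no count in saline 3, saline 4 and chow 3, cannot be told from 0 there below 3 counts; with halved counts it was still called in DT against saline and in DT against chow.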
